A study of Mus musculus with 12 samples.

Results

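Exon sense-overlapping long noncoding RNAs (lncRNAs) are annotated noncoding transcripts that share exon sequence, on the same strand, with a protein-coding gene. The peaks of N6-methyladenosine (m6A) that had been assigned to such transcripts were described here in C17.2 cells, a line of immortalised neural stem cells (NSCs) from mouse. They were taken from the 6 deposited lncRNA peak lists as the entries whose relationship to a coding gene was given as exon sense-overlapping, counted once per peak and transcript. This left 7254 peaks of 11628 in the lncRNA lists (62.4%), on 2520 of 4089 lncRNA transcripts (61.6%) with 1996 gene symbols. No peak was assigned to more than 1 such transcript, so peaks and entries were the same number.

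All cells were wild type. The control group was kept in standard culture. The hypoxia/reoxygenation (H/R) group, which imitates ischemia and reperfusion, was held for 12 h at 5% oxygen and returned to standard oxygen for 48 h. The assay, methylated RNA immunoprecipitation sequencing (MeRIP-seq), sets RNA fragments pulled down by an m6A antibody (IP) against unselected input RNA, and it was run on total RNA. The labels named 12 samples in 4 groups (input and IP of each condition), and the peak lists formed 6 libraries, 3 of control cells and 3 of H/R cells, lettered A to C in each group. Sets of 3 values are given in that order throughout. C17.2 is a single line, and no source tied the replicates to separate cultures. The p-values therefore cover only how these samples vary, and that variation may be technical. As a check of the cell type, Nes, Sox2, Sox9 and Notch1 were the 4 of 10 NSC markers with a peak in all 6 mRNA lists, and none of 4 microglial and none of 3 endothelial markers had a peak in any. Markers of other cell types were not all without a peak, with 0 to 2 of 6 neuronal, 0 or 1 of 6 oligodendrocyte, 0 or 1 of 5 astrocyte and 0 or 1 of 3 fibroblast markers per list. Vim, Pax6, Prom1 and Fabp7 had none either, and a missing peak does not show a missing transcript.

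m6A is laid down on nascent and mature RNA by a nuclear methyltransferase complex, and reader proteins that bind it alter splicing, export, translation and decay of the RNA. Many noncoding transcripts catalogued inside coding genes are alternative products of those genes: a retained-intron transcript keeps an intron that the coding transcript removes, a processed transcript lacks an open reading frame, and a nonsense-mediated decay transcript carries an early stop codon. Because they share exons with the coding RNA, a peak of MeRIP-seq on a shared exon cannot by itself be tied to one of the isoforms.

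The peaks are best seen in their sequence. The first set shows 30 bases around the m6A consensus motif nearest the middle of the peak, for 4 transcripts listed in the 3 H/R libraries and in no control library and for 3 listed in all 6. The motif, DRACH, is A, G or T, then A or G, then AC, then A, C or T, and was searched on the transcript strand only. Capitals mark it. Tpm2 to Sh3d19 are from the H/R lists alone and Dek to Smarce1 from all 6, and coordinates are those of GRCm38 (mm10).

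Tpm2 (chr4:43518693-43518722, minus strand, motif in coding sequence): cagtaaatgtggGGACCtagaggaggagct

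Canx (chr11:50298152-50298181, minus strand, motif in coding sequence): tggtctacatttTGACTgtagctttgccag

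Brd2 (chr17:34113044-34113073, minus strand, motif in an intron of the coding transcripts): cagcatccaggaTGACTgggctgcttcagg

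Sh3d19 (chr3:85971109-85971138, plus strand, motif outside the coding transcripts): ggggaaggGAACCggacgggaagcgagctg

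Dek (chr13:47105468-47105497, minus strand, motif in an intron): gctccttttgggAAACAgttatcttgcatt

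Metap2 (chr10:93879814-93879843, minus strand, motif in an intron): gagcagcaagaaGAACAtaatttctgactg

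Smarce1 (chr11:99213250-99213279, minus strand, motif in coding sequence): gcacaggcggagGAACAagcccgcaagagg

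Such a motif is common. Of 80696 windows of 30 bases tiled over all exon sense-overlapping peaks, 41.7% held a DRACH, against 42.9% of 1146069 windows over mRNA peaks. The 4-letter core GGAC was in 10.5% and 10.97% of these windows. Between 97.4% and 98.4% of the peaks of a library held at least 1 DRACH, and the peaks shown held from 1 (Sh3d19) to 20 (Brd2). A match is a description of the sequence and not a mapped m6A site.

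The second set shows places where a peak holds both coding and intron sequence. For 4 of these transcripts, and for Eif3j1, which was listed in all 6 libraries, the peak ran across the end of a coding exon into the intron behind it, and the 15 coding bases before the boundary are printed in lower case and the first 15 intron bases in capitals. Each intron began with GT, the start of a standard 5′ splice site.

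Tpm2 (chr4:43518988-43519017, minus strand): gcctcagaggaggagGTAGTAGCCTCTCTG

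Brd2 (chr17:34113162-34113191, minus strand): cccggaagccctacaGTGAGTATCAGATGA

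Eif3j1 (chr2:122028897-122028926, plus strand): gacgaggacgtgaagGTAGGTTCGGGCCCG

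Dek (chr13:47105557-47105586, minus strand): aggaggaagaaaaagGTGGGTGGGCAGGGA

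Metap2 (chr10:93880058-93880087, minus strand): agaagaagagaggacGTTAGTGTCTTACGA

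The Tpm2 peak held 215 coding and 462 intron bases, the Brd2 peak 453 and 345, the Eif3j1 peak 104 and 417, the Dek peak 157 and 191, and the Metap2 peak 199 and 400. These listed intervals follow the noncoding transcript. In the libraries, 99.7% to 99.8% of the peak bases on GENCODE transcripts lay in an exon of the assigned lncRNA, 92.7% to 98.6% of the peaks began or ended at an end of such an exon (within 1 bp), and 45.4% to 63.1% spanned the whole exon. A listed length is therefore the length of the exon part and not that of the peak as called.

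More peaks were listed after H/R. The lists held 991, 672 and 619 exon sense-overlapping peaks in the controls and 1685, 1245 and 2042 after H/R. All H/R lists exceeded all control lists, with means of 761 ± 201 and 1657 ± 399 (SD, n = 3 each), and the two-sided exact permutation p was 0.1, the smallest that 3 against 3 libraries allow. Adjusted by Benjamini-Hochberg over the 13 measures compared in this way it was 0.144, and no such comparison could pass 0.05. Once entries with a fold below 10 were left out, the means were 737 and 856, a difference of 119 in place of 897 (exact permutation p = 0.5, n = 3 each). The read numbers that the study gives for its libraries were not used here, and a list can grow with depth as well as with methylation. A change in the number of cells that carry an RNA and a change in RNA per cell cannot be told apart in these bulk samples.

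The class grew together with the lncRNA lists. Its share of the lncRNA entries was 62.2%, 60.3% and 59.1% in the controls and 63.6%, 62.9% and 63.0% after H/R. The groups did not overlap, with means of 60.5 ± 1.54% and 63.2 ± 0.399% (SD, n = 3 each, exact permutation p = 0.1). When each lncRNA list was trimmed to the length of the shortest, 1047 entries, by p score and then fold enrichment, the control share averaged 60.7% and the H/R share 66.95% (exact permutation p = 0.1), a difference of 6.21 percentage points against 2.63 in the full lists. With a fold enrichment of at least 10 it was 0.893 points (60.2% and 61.1%, exact permutation p = 0.3). The p score is the -log10 of the p from the peak caller MACS, multiplied by 10.

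Enrichment of the typical peak was lower in the H/R lists. The fold enrichment, the ratio of IP signal to local background given by MACS, had a median of 19.7, 32.3 and 26.6 in the controls and of 8.50, 14.9 and 9.20 after H/R. Again the groups did not overlap (26.2 ± 6.29 and 10.9 ± 3.53, SD, n = 3 each, exact permutation p = 0.1). At equal list length the means of these medians were 28.7 and 17.4 (exact permutation p = 0.1). With a fold of at least 10 they were 26.6 and 15.8 (exact permutation p = 0.1). The median listed length was 403, 427 and 420 bp in the control lists and 340, 393 and 320.5 bp in the H/R lists, which also did not overlap (417 ± 12.3 and 351 ± 37.5 bp, exact permutation p = 0.1, n = 3 each). At equal list length the length difference was -21.0 bp (exact permutation p = 0.4) in place of -65.5 bp, and with a fold of at least 10 it was -16.3 bp (exact permutation p = 0.3). The false discovery rate that MACS gave was at most 5% for 1 of the 7254 peaks, and its median over a list was between 76.3% and 100%, so a single listed peak is weakly supported by that measure.

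**Figure D1:**
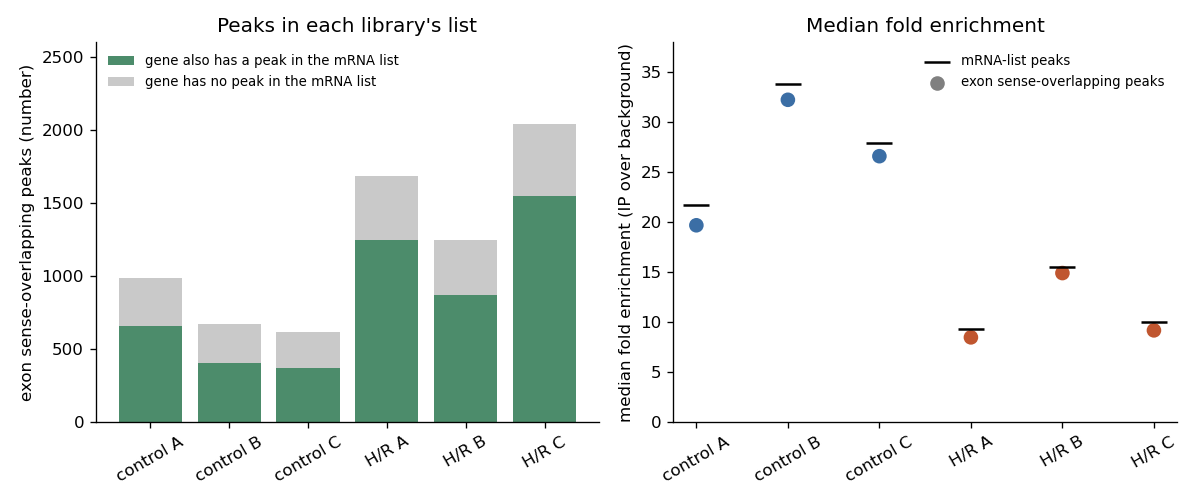
Left, number of exon sense-overlapping peaks in each of the 6 libraries, split by whether the gene symbol also has a peak among the mRNA peaks of that library. Right, median fold enrichment of these peaks (points, control blue, H/R orange) and of the mRNA peaks (black bars). The 3 H/R lists are longer than the 3 control lists and have lower medians, and the points lie just below the bars in each library.

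The same peak never stood in both the mRNA and the lncRNA list. Of 7254 exon sense-overlapping peaks, 0 carried the peak identifier of an mRNA peak of the same library and 0 overlapped such a peak by 1 bp or more on the same strand, and of all 11628 lncRNA entries 0 shared an identifier. The split into peaks that the mRNA list shares and peaks it lacks was therefore empty on one side in all 6 libraries. Across libraries, an mRNA peak of another library lay at the place of 0.196% to 3.63% of the peaks of a library, while a peak of another library's lncRNA list lay there for 27.2% to 91.0%.

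The host genes, by contrast, were mostly also represented among mRNA peaks. The gene symbol had a peak elsewhere in the mRNA list of that library for 66.8%, 60.9% and 59.8% of the peaks in the controls and for 74.1%, 70.0% and 75.8% after H/R. Every H/R value was above every control value (62.5 ± 3.78% and 73.3 ± 2.99%, SD, n = 3 each, exact permutation p = 0.1). With the lncRNA and mRNA lists both trimmed to their shortest length, the difference was 2.08 percentage points (exact permutation p = 0.4) in place of 10.8. For peaks whose gene had one, the nearest mRNA peak of the gene lay a median of 3239 to 3436 bp away in the 6 libraries, and never closer than 45 bp.

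Peaks whose gene symbol had an mRNA peak were compared, within each library, with peaks whose symbol had none. They were shorter in 6 of 6 libraries, with medians of 358, 378 and 369.5 bp against 523, 538 and 506 bp in the controls and of 328, 365 and 310 bp against 436.5, 478.5 and 389 bp after H/R. The mean log2 ratio was -0.44 ± 0.08 (SD), a ratio of 0.737, with a two-sided exact permutation p of 0.03125 over sign changes in 6 libraries, the smallest this test allows (0.0365 adjusted over 7 such comparisons). Their DRACH density was higher by 0.443 ± 0.318 motifs per kb (SD, 6 of 6 libraries, exact permutation p = 0.03125), which became 0.321 (exact permutation p = 0.0625) at equal list length and 0.429 (exact permutation p = 0.09375) among peaks with a fold of at least 10. Fold enrichment had a mean log2 ratio of 0.03 ± 0.04 (SD, above 0 in 5 of 6 libraries, exact permutation p = 0.1875). The lengths compared are those of exon parts of the lncRNAs, and 387 transcripts stood in all 6 lists. The 6 comparisons thus repeat much of the same annotation and do not measure the peaks as called. Entries not named by their coding gene, such as AK048941, could also fall on the side without an mRNA peak.

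Retained introns dominated the annotation of the transcripts. In GENCODE vM21, 1441 of the 2520 transcripts (57.2%) were retained-intron transcripts, 575 (22.8%) processed transcripts, 128 (5.08%) nonsense-mediated decay transcripts and 33 (1.31%) protein-coding ones, and 335 (13.3%) were not in that release. Identifiers came from Ensembl for 2252 transcripts, from UCSC for 222 and from RefSeq for 46. Of the 7254 peaks, 6935 (95.6%) were named by the coding gene they overlapped. Retained-intron transcripts carried 59.8%, 57.9% and 59.8% of the peaks in the controls and 60.3%, 60.4% and 59.5% after H/R, and the groups overlapped (exact permutation p = 0.3). At equal list length the shares were 59.5% and 63.7% (exact permutation p = 0.1).

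On the coding transcripts of the genes, the peaks covered exon and intron together. In the 6 libraries, 82.8% to 89.7% of the peaks touched a coding-transcript exon, 75.9% to 80.6% touched both an exon and an intron, 6.14% to 12.2% lay in introns alone and 3.18% to 4.68% in exons alone. Of the bases, 44.1%, 42.6% and 43.6% were intronic in the controls and 47.0%, 46.9% and 47.8% after H/R. Every H/R library was above every control library (43.4 ± 0.794% and 47.2 ± 0.496%, SD, n = 3 each, exact permutation p = 0.1). At equal list length this difference was 0.796 percentage points (42.1% and 42.9%, exact permutation p = 0.5), and with a fold of at least 10 it was 0.623 (exact permutation p = 0.6), in place of 3.82.

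Coding sequence took 30.2 ± 1.20% of the bases for control cells and 30.3 ± 1.47% after H/R (SD, n = 3 each, exact permutation p = 1.0). Untranslated exon parts took 16.0 ± 0.552% and 13.2 ± 0.852% (exact permutation p = 0.1, no overlap), a difference of -2.75 percentage points that became -1.52 at equal list length and -1.11 with a fold of at least 10, and 10.4 ± 1.99% and 9.24 ± 1.02% lay outside the coding transcripts (exact permutation p = 0.5). The mRNA peaks of the same libraries had 1.88% to 2.41% of their bases in introns, and the other lncRNA peaks 8.93% to 11.6% in introns and 84.0% to 87.3% outside coding transcripts. By transcript kind, intron bases made up 52.8% of the peaks on retained-intron transcripts, 51.6% on processed transcripts and 11.8% on nonsense-mediated decay transcripts, where untranslated exon parts were 44.99%. This place of the bases follows in large part from how the lists were made. The class is defined by exon overlap with a coding gene, and its intervals follow the exons of the assigned lncRNA. For mRNA peaks, the methods describe a screen for those on mRNA exons. The contrast in intron share therefore does not show where m6A lay.

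**Figure D2:**
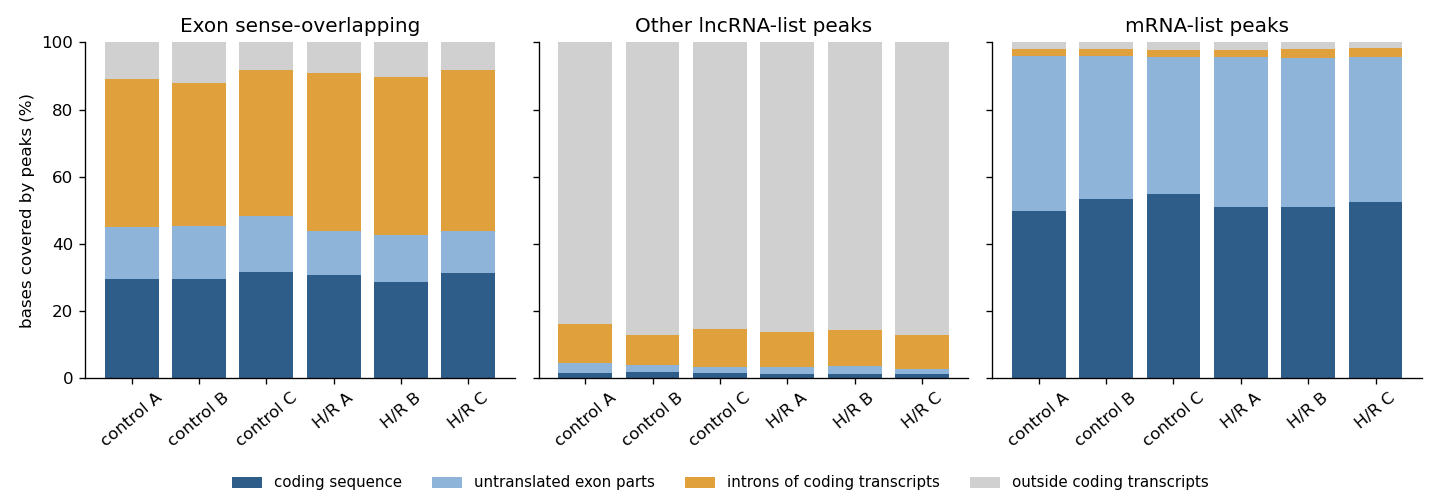
Share of peak bases (%) in coding sequence, untranslated exon parts, introns and outside coding transcripts of GENCODE vM21, by library, for exon sense-overlapping peaks, other lncRNA-list peaks and mRNA-list peaks. Introns take 42.6% to 47.8% of the exon sense-overlapping bases, against 1.88% to 2.41% in mRNA peaks. This contrast follows in large part from the annotation, since the lncRNA intervals follow lncRNA exons and the mRNA peaks were screened for mRNA exons.

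Within the lncRNAs themselves, peaks sat mostly in end exons. On GENCODE transcripts, the first exon held 40.7% to 43.9% of the peaks of a library, the last exon 39.0% to 41.8%, an internal exon 13.3% to 14.5%, and a sole exon 2.81% to 3.59%. These ranges cover all 6 libraries. Internal exons were thus the smaller share of the multi-exon cases in each library. How many exons of these transcripts are first, last or internal was not counted, so the shares show no preference for a position.

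Motif density over all bases was lower than in mRNA peaks, and lower over introns than over exons. The peaks had 20.1, 20.1 and 20.01 DRACH motifs per kb in the controls and 19.6, 19.9 and 19.6 after H/R, without overlap (20.1 ± 0.034 and 19.7 ± 0.184, SD, n = 3 each, exact permutation p = 0.1). Within libraries the density was below that of mRNA peaks by 0.655 ± 0.0893 motifs per kb (SD, 6 of 6 libraries, exact permutation p = 0.03125, adjusted 0.0365). Exon bases held 20.94, 20.72 and 20.64 motifs per kb in the controls and 20.50, 20.88 and 20.39 after H/R. Intron bases held 19.1, 19.3 and 18.97 and then 18.7, 18.9 and 18.9. The difference was 1.72 ± 0.210 motifs per kb (SD, higher over exons in 6 of 6 libraries, exact permutation p = 0.03125). Motifs were counted in the genome sequence of the listed intervals, and 387 transcripts stood in all 6 lists. The 6 libraries thus repeat much of the same sequence, and the within-library p-values for motif density do not rest on 6 separate measurements. The mRNA peaks held 20.79, 20.63 and 20.60 in the controls and 20.38, 20.57 and 20.25 after H/R. These lay below the exon bases of the exon sense-overlapping peaks in 6 of 6 libraries, which was not tested. The lower density against mRNA peaks thus holds only with intron bases included. GC content of the peaks was 49.6% to 50.8%, and that of the mRNA peaks 50.3% to 52.1%. Its part in these differences was not tested.

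**Figure D3:**
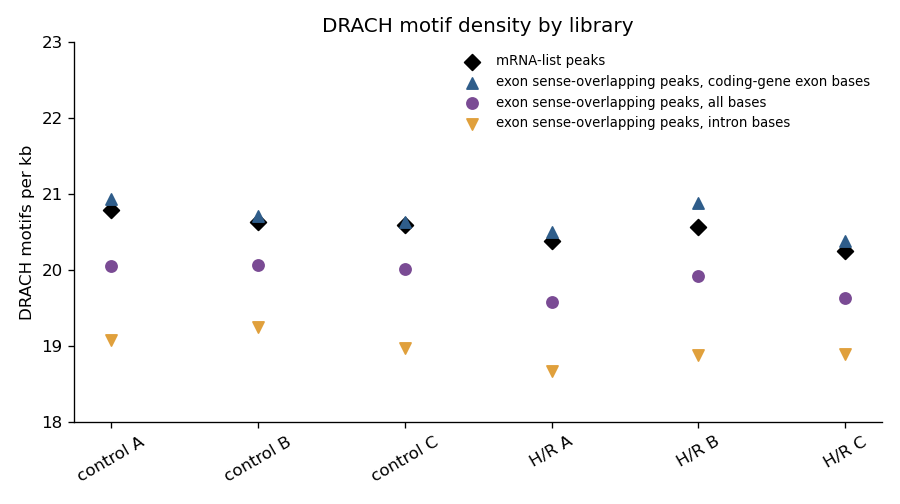
DRACH motifs per kb in each library, for mRNA peaks (diamonds) and for exon sense-overlapping peaks over all bases (circles), over coding-gene exon bases (upward triangles) and over intron bases (downward triangles); the axis starts at 18. Circles lie below diamonds, upward triangles just above diamonds, and downward triangles below upward ones in all 6 libraries.

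Fold enrichment was also slightly below that of the other peaks of a library. The ratio of the median to that of mRNA peaks was 0.933 (log2 -0.10 ± 0.04, SD, lower in 6 of 6 libraries, exact permutation p = 0.03125, adjusted 0.0365), and that to the other lncRNA peaks 0.889 (log2 -0.17 ± 0.09, lower in 6 of 6, exact permutation p = 0.03125). Among peaks with a p score of at least 100 the first difference was -0.06 on the log2 scale (exact permutation p = 0.09375).

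Many transcripts were seen in few lists. Of the 2520 transcripts, 977 stood in 1 list, 447 in 2, 310 in 3, 201 in 4, 198 in 5 and 387 in all 6. The last were 15.4% of the transcripts, against 14.7% of lncRNA transcripts of every class. In the 3 H/R lists and no control list there were 172 transcripts (6.83%, against 5.84% of all lncRNA transcripts), and in the 3 control lists and no H/R list 3 (0.119%, against 0.171%). At equal list length the counts were 19 of 1144 (1.66%, against 1.4%) and 9 of 1144 (0.787%, against 1.3%), and 298 (26.0%, against 23.5%) stood in all 6. The H/R-only count thus fell from 172 to 19 with trimming while the control-only count rose from 3 to 9, and each share stood near the background. Without control A, 283 transcripts were in the 3 H/R lists and neither other control list, and without H/R B 392 were in both other H/R lists and no control list. The control-only count ran from 5 to 9 whichever single library was left out. Fewer lists make these conditions easier to meet, and the shares over all lncRNA transcripts were not computed with a library left out.

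**Figure D4:**
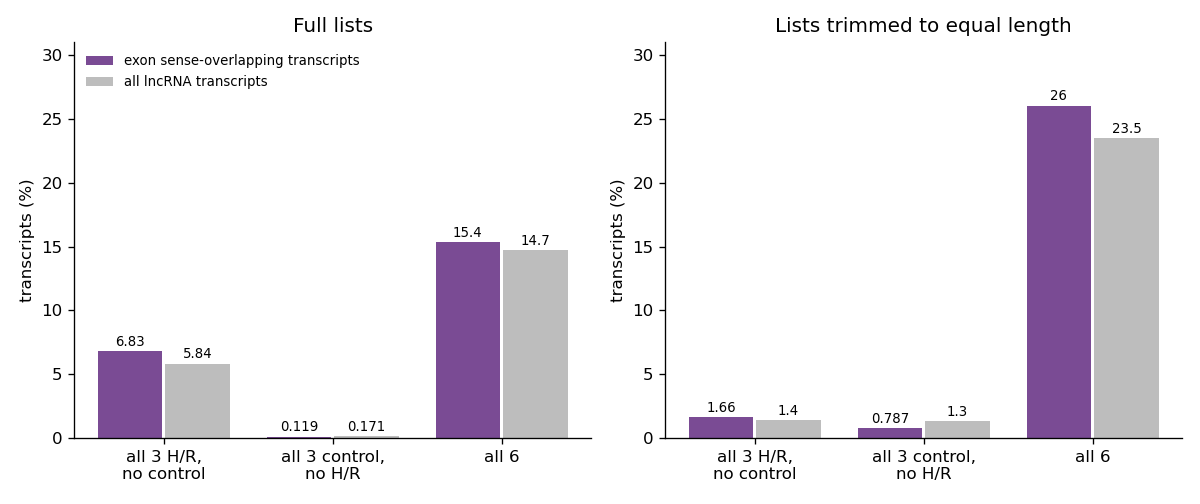
Share of transcripts (%) listed in the 3 H/R libraries and no control library, in the 3 control libraries and no H/R library, and in all 6, for exon sense-overlapping transcripts (purple) and for all lncRNA transcripts (grey), with full lists (left) and lists of equal length (right). The H/R-only share of exon sense-overlapping transcripts is 6.83% in full lists and 1.66% at equal length, next to 5.84% and 1.4% over all lncRNA transcripts.

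The 172 H/R-only transcripts belonged to 168 genes. For 127 of them (73.8%) the gene had an mRNA peak in at least 1 control list and for 86 in all 3. These shares lay near those of the whole class, where the gene had an mRNA peak in at least 1 control list for 64.8% of the transcripts, and of the transcripts in all 6 lists, with 74.7%. The gene symbol was in no mRNA list for 22 (12.8%, against 18.5% of the whole class). At the place of the peak, 1 of the 172 had another peak in a control list. Their lowest fold over the 3 lists had a median of 6.80 and their lowest p score one of 111, against 14.2 and 206 for the transcripts in all 6 lists. Retained-intron transcripts were 64.5% of them and 62.3% of the transcripts in all 6 lists.

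The H/R-only transcripts were ranked by their lowest p score. First came Tpm2. On this gene, which encodes an actin-binding tropomyosin, a processed transcript (chr4:43518402-43519078) had fold enrichments of 30.4, 39.9 and 28.5 after H/R, over an interval with 31.8% coding and 68.2% intron bases. The gene itself had an mRNA peak in all 6 lists. On Canx, the chaperone calnexin, the transcript (chr11:50298117-50298319) had 10.7, 32.03 and 23.8, and 59.1% of its bases were coding. A second Canx transcript was listed in 5 libraries, with fold enrichments of 35.1 and 40.4 in control A and C and of 8.19, 11.01 and 10.6 after H/R. The 2 transcripts of this gene thus stood in different sets of lists.

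Brd2, a bromodomain protein that binds acetylated histones, had a retained-intron transcript (chr17:34112684-34113481) with 12.1, 11.9 and 10.2 in the H/R lists and no mRNA peak in any control list. Sh3d19, an SH3-domain adaptor, had 33.5, 36.9 and 37.3 over an interval wholly outside the coding models (chr3:85971109-85971424). The values of these 2 members were close to each other across the H/R libraries. Huwe1, a ubiquitin ligase, had 12.9, 16.2 and 20.7 on one transcript (chrX:151909409-151910192), while another of its transcripts was listed in all 6, with 11.9, 21.1 and 16.0 in the controls and 9.39, 10.3 and 13.1 after H/R. Also in this set were Wnk1, a kinase of ion transport, Cald1, which encodes caldesmon of actin filaments, Myo18a, an unconventional myosin, and Sel1l, of protein quality control in the endoplasmic reticulum. Their fold enrichments in the H/R lists ran from 5.22 (Sel1l in H/R A) to 21.4 (Cald1 in H/R B and Myo18a in H/R C), and each gene had an mRNA peak in all 6 lists.

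The 3 control-only transcripts were on Ptpn1, Zeb1 and Piga. Ptpn1 encodes a protein tyrosine phosphatase, and its transcript had fold enrichments of 62.1, 34.5 and 47.6 in the controls. Zeb1, a repressor of epithelial genes, had 24.7, 18.7 and 26.0 over an interval of 106 bp that was wholly intronic. Piga, the first enzyme of glycosylphosphatidylinositol anchors, had 43.1, 31.02 and 23.3 on a nonsense-mediated decay transcript. All 3 genes had mRNA peaks in all 6 lists, and for 2 of the 3 transcripts, those on Ptpn1 and Piga, an mRNA peak lay at the same place in each of the 3 H/R lists.

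Among the 387 transcripts in all 6 lists, fold enrichment was lower after H/R as listed. In 179 (46.3%) every H/R value lay below every control value, against 48.2% of the 602 lncRNA transcripts of every class in all 6 lists, and in 1 (0.258%, against 0.498%) every H/R value lay above. The median ratio of H/R to control means was 0.585. Divided by the median fold of the lncRNA list of the library, which was 20.9, 34.2 and 29.3 in the controls and 8.68, 15.5 and 9.38 after H/R, the direction was the reverse. Then 146 (37.7%, against 33.9%) lay above and 1 (0.258%, against 0.831%) below, and the median ratio was 1.48. Without control A, 275 transcripts were lower after H/R as listed, and without control C or H/R B 279. These counts are over all exon sense-overlapping transcripts in every list kept, not over the 387, and fewer lists make the condition easier to meet. Their shares over all lncRNA transcripts were not computed. The direction for the 387 transcripts thus rests on the scaling, and neither scale sets a level of methylation.

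The transcripts in all 6 lists were ranked by their lowest p score and then their lowest fold, and Eif3j1, a subunit of translation initiation factor eIF3, came first. Its processed transcript (chr2:122028808-122029328) had fold enrichments of 353, 362 and 386 in the controls and of 196, 240 and 130 after H/R. The H/R values lay below the control values, and 80.0% of the interval was intronic. The entry also names the near-identical copy Eif3j2, and reads of the 2 copies may have been shared. Dek, a chromatin protein, had 144, 309 and 184 and then 126, 200 and 147, with overlap of the groups. Metap2, which removes the first methionine of new proteins, had 83.5, 171 and 134 and then 79.5, 96.0 and 100.2, also with overlap.

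Smarce1, a subunit of the BAF chromatin remodeller, had 126, 134 and 86.7 in the control lists and 55.5, 78.2 and 85.6 in the H/R lists. Cdk11b, a kinase of transcription and splicing, had 269, 189 and 170 and then 80.3, 88.0 and 45.6, a ratio of means of 0.341, and 94.6% of its 147 bp were coding. Psmd4, the ubiquitin receptor of the proteasome, had 103, 82.1 and 85.8 and then 40.3, 68.0 and 53.0, and its gene had an mRNA peak in the 3 H/R lists and none in the control lists. The groups did not overlap in these 3 as listed.

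Pdap1, Abcf1, Rbm25 and Anp32a completed the set. Rbm25, a splicing regulator, had 93.02, 64.03 and 76.05 in the controls and 34.9, 47.8 and 32.7 after H/R over 65.5% intron bases. Of the 10 transcripts, 7 had every H/R value below every control value as listed, and divided by the list's median 0 did, while Pdap1, Anp32a, Dek and Metap2 had every H/R value above. The corresponding shares over all lncRNA transcripts in 6 lists were the 48.2%, 0.831% and 33.9% given above.

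**Figure D5:**
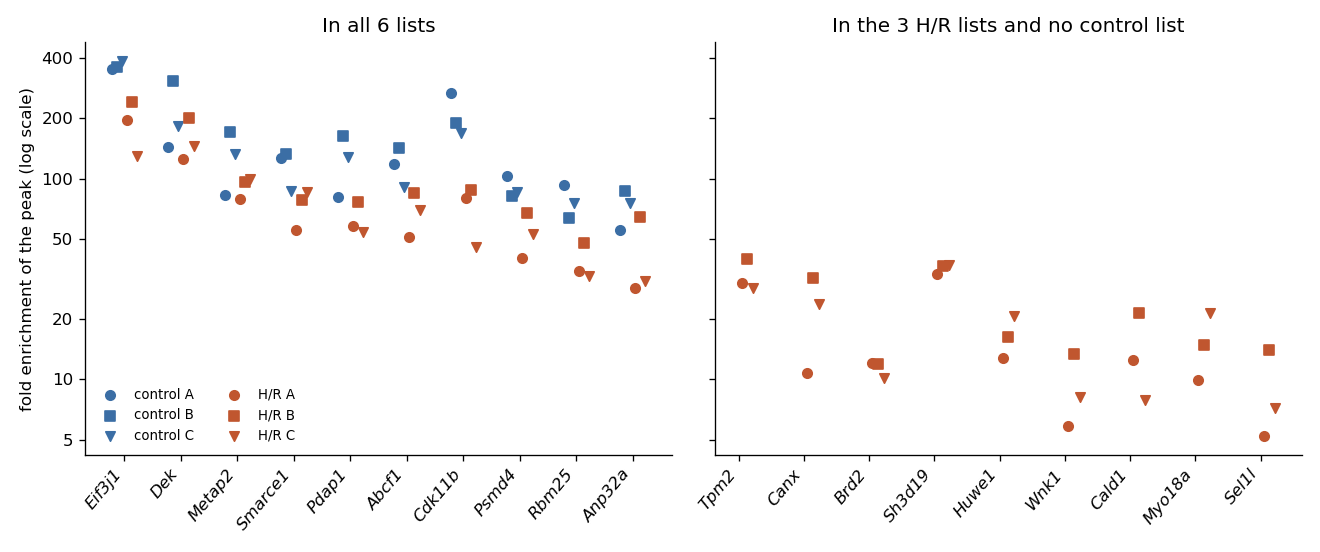
Fold enrichment (log axis) of the peak in each library for the 10 transcripts ranked highest by p score among those in all 6 libraries (left) and for 9 of the 10 so ranked among those in the H/R libraries alone (right); control blue, H/R orange, one symbol per letter A to C. The right panel has no control points because the transcripts are absent from those lists, and its values lie between 5.22 and 39.9.

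Some gene symbols of these entries had no mRNA peak. The symbol matched was that of the lncRNA entry, which for 95.6% of the peaks was that of an overlapped coding gene. Where it was not, as for AK048941 on Cdv3, the coding gene was not looked up. For 467 of the 2520 transcripts (18.5%), on 397 of 1996 genes, the gene symbol had no peak in any mRNA list, and 62 of these transcripts were in all 6 lncRNA lists. Hmgn1, a nucleosome-binding protein, had fold enrichments of 81.4, 85.6 and 94.9 in the controls and 38.1, 43.3 and 41.7 after H/R over an interval that was 91.2% intronic. Arih1, a ubiquitin ligase, had 47.1, 103 and 100.4 and then 30.7, 50.3 and 48.5, with 57.7% of the bases coding and 41.7% untranslated exon. As listed, Hmgn1 did not overlap between groups and Arih1 did. Hmgn1 was lower in every H/R list, as were 48.2% of all lncRNA transcripts in 6 lists.

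Hypk, a chaperone of nascent proteins, had 106, 92.8 and 70.6 in the control lists and 65.9, 118 and 97.3 in the H/R lists, so the groups overlapped. The ribosomal protein genes Rpl13 and Rpl41 had retained-intron peaks in all 6 lists, with 15.9, 21.9 and 25.5 and then 7.10, 11.1 and 7.18 on Rpl13, and 49.3, 47.9 and 42.5 and then 18.1, 30.2 and 20.4 on Rpl41. Atp5k, a subunit of ATP synthase, had 59.3, 53.7 and 45.8 and then 16.7, 33.8 and 39.6. As listed, every H/R value of these 3 was below every control value, which held for none of them after division by the list's median. Over all lncRNA transcripts in 6 lists these shares were 48.2% and 0.831%. Ribosomal protein genes have processed copies elsewhere in the genome, so their assignment is uncertain. AK048941, assigned to Cdv3, was highest in H/R A, with 184, against 62.0 to 123 in the other 5 lists. Gm14288, 4930546H06Rik and Gm21972, the other transcripts of this group, had values from 15.01 to 62.2.

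A few genes carried several peaks. Rbm5, an RNA-binding splicing regulator, had 5, 4 and 4 peaks in the controls and 6, 7 and 7 after H/R, over 5 transcripts. Tpr, of the nuclear pore basket, had 5, 4 and 5 and then 5, 5 and 6, and Baz2b, a bromodomain protein, 5, 4 and 3 and then 5, 5 and 6. Dnajc8, a J-domain protein, had 4 in each list but H/R C, which had 3. Each of these 4 genes thus had several peaks in every list of both groups.

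Groups of genes differed in how many members hosted such a peak, set beside 1599 of 10030 genes (15.9%) among all genes with an mRNA peak. Of the splicing factor list (45 genes), 13 of 29 genes with an mRNA peak (44.8%) hosted one, and 15 genes in all. Between 9 and 10 of them were called per control list and 11 to 15 per H/R list. Over all host genes these counts were 527 to 816 and 995 to 1597. Rbm25, Luc7l3, Srrm1 and Acin1 had peaks in all 6. Luc7l3, a U1-associated protein, had fold enrichments of 82.2, 77.2 and 57.6 in the controls and 31.2, 54.2 and 15.9 after H/R, and Srrm1, a splicing coactivator, 34.6, 75.8 and 54.6 and then 31.9, 57.8 and 31.1. Rbm39, Clk2, a second transcript of Srrm1 and one of Rbm5 were H/R-only. These were 4 of the list's 31 transcripts, a share that was not tested. Over all exon sense-overlapping transcripts the share was 6.83%, and over all lncRNA transcripts 5.84%. The values of Luc7l3 did not overlap between groups as listed and those of Srrm1 did. Luc7l3 was lower in every H/R list, as were 48.2% of all lncRNA transcripts in 6 lists. Of the hnRNP genes, 5 of 14 (35.7%) hosted a peak, and that of Hnrnpr was in all 6 lists.

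Of the chromatin regulators, 24 of 56 (42.9%) hosted a peak, 10 to 14 per control list and 18 to 22 per H/R list. All host genes numbered 527 to 816 per control list and 995 to 1597 per H/R list. Atrx, a remodeller of heterochromatin, had 50.2, 114 and 70.4 in the control lists and 17.2, 40.3 and 24.4 in the H/R lists. Brd3 had 103, 116 and 264 and then 57.5, 159 and 69.0. As listed, Atrx did not overlap between groups and Brd3 did. Atrx was lower in every H/R list, as were 48.2% of all lncRNA transcripts in 6 lists. Chd8 and Setd5 were also in all 6. H/R-only transcripts of this list numbered 7 of 35, beside 6.83% of all exon sense-overlapping transcripts and 5.84% of all lncRNA transcripts, a difference that was not tested, among them those on Smarca2, Asxl1, Brd2, Chd8, Dnmt3a and Kat6b.

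Of the m6A readers, 4 of 11 genes with an mRNA peak (36.4%) hosted one. Fmr1, the fragile X protein, had 26.7, 32.6 and 25.2 in the controls and 14.5, 24.0 and 17.7 after H/R, without overlap as listed. Of all lncRNA transcripts in 6 lists, 48.2% were likewise lower in every H/R list. Ythdf2, which directs m6A-bearing RNA to decay, was in 5 lists, with 29.5 and 47.2 in control A and B and 16.5, 31.1 and 34.5 in the H/R lists. Ythdc1, the nuclear reader, had 1 transcript in 5 lists and another that was H/R-only (6.54, 11.3 and 7.23). Igf2bp2 was in H/R A alone. Among the m6A writers and erasers, 1 of 12 genes (8.33%), Wtap, hosted a peak, with 5.49 in H/R A and 8.02 in H/R C. GENCODE vM21 gives this Wtap transcript as protein-coding.

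Among stress and stem cell genes the share varied by list. Of the heat shock and endoplasmic reticulum list, 9 of 28 (32.1%) did, with Hspa4 and Dnajb6 in all 6 lists. Hspa4 had 26.3, 43.1 and 37.1 in the control lists and 19.9, 30.9 and 12.5 in the H/R lists, with overlap. Of the hypoxia and HIF list, 1 of 18 genes with an mRNA peak (5.56%) hosted one. Pgk1, a glycolytic enzyme and HIF target without an mRNA peak, was in 5 lists at 6.63 and 17.9 in control A and B and at 6.55, 17.3 and 12.5 in the H/R lists, while Bnip3 was in 2 H/R lists and Egln2 in 1. Of the neural stem cell and Notch genes, 3 of 18 (16.7%) did. Nes, the intermediate filament nestin, had an H/R-only transcript at 8.34, 12.1 and 10.2, and its gene had an mRNA peak in all 6 lists. Jag1 was in 3 lists and Dll1 in 2.

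Cell cycle genes were counted beside all genes that hosted such a peak, which numbered 816, 574 and 527 in the controls and 1338, 995 and 1597 after H/R. DNA replication and repair genes hosted a peak in 0 genes of each control list and in 6, 2 and 6 genes of H/R A, B and C, 9 of 35 genes with an mRNA peak (25.7%) in all. Ccne2, a cyclin of S phase entry, had an H/R-only transcript at 7.44, 25.7 and 11.5, and Mcm10, Ccne1 and Lig1 were in 2, 2 and 1 H/R lists. Mitosis genes were called 3, 2 and 2 times in the control lists and 7, 5 and 6 times in the H/R lists, 8 of 38 (21.1%). Top2a, the topoisomerase that untangles sister chromatids, was in all 6 lists at 56.1, 21.9 and 23.7 and then 32.5, 52.5 and 36.4, with overlap, and Tpx2 and Cenpf had H/R-only transcripts. The longer H/R lists bear on such counts, which were not tested.

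The remaining lists lay on both sides of the 15.9% over all genes. Ubiquitin ligases and proteases had 8 of 29 (27.6%), RNA decay genes 5 of 20 (25.0%), interferon and antiviral genes 4 of 17 (23.5%), and extracellular matrix and adhesion genes 6 of 29 (20.7%). Translation factors and ribosomal proteins had 2 of 16 (12.5%), Akt, mTOR and MAP kinase genes 3 of 25 (12.0%), and Wnt, TGF-beta and Hedgehog genes 4 of 34 (11.8%). Known lncRNA and snoRNA host genes had 0 of 4, and 2900097C17Rik of that list, without an mRNA peak, hosted a peak in 5 lists. Upf3b, a nonsense-mediated decay factor, was in all 6 lists over an intronic interval, at 72.6, 77.7 and 95.4 in the controls and 44.1, 50.5 and 28.9 after H/R. Lrp6, a Wnt co-receptor, had 102, 110 and 82.2 and then 61.1, 61.0 and 57.8, on a transcript that GENCODE vM21 gives as protein-coding. Tnfaip3, an inhibitor of NF-kappaB signalling, had 52.4, 59.8 and 54.1 and then 21.7, 18.5 and 36.2. As listed, the H/R values of these 3 lay below the control values, which held for none of them over the list's median. Over all lncRNA transcripts in 6 lists these shares were 48.2% and 0.831%. The lists were chosen with earlier results known, and nothing particular to a list was tested.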

How the data were processed

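The MeRIP-seq peak lists came from 3 control libraries and 3 of the H/R group. The submitters' processing notes name cutadapt 1.9.3, HISAT2 2.0.4 and mm10. Per the file headers, the authors computed the enrichment values with MACS, and the methods describe a program of their own that screened and annotated peaks on mRNA exons. The lists were deposited 1 per library, and whether the input served as the control of MACS is not given in the sources used here. The deposited p score is 10 times the -log10 of the MACS p, up to 3100 for most of the strongest peaks. The deposited fold enrichment is a ratio, as MACS defines it, of signal to local background. The false discovery rate was deposited in percent. The deposited circRNA lists gave a fold as well. Whether the library preparation kept the strand is not given in the sources used here, so overlapping sense and antisense RNA cannot be told apart.

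Listed intervals were set against GENCODE vM21 models and RefSeq sequence of GRCm38, the build of the lists. A base was called coding, untranslated exon, intron or outside from the protein-coding transcripts of the same strand, and 0.686% of the mRNA peaks had no strand and were left out of sequence and base counts. The 13 measures per library were compared by two-sided exact permutation of 3 against 3 libraries, and 7 differences within libraries by exact sign changes over 6, with Benjamini-Hochberg adjustment at 0.05. The lists hold no read counts per peak, and the read totals of the study were not used here, so no counting interval is given. The planned split by peak identifier was empty. Gene symbols of the lncRNA entries, not those of the associated coding genes, were used in its place. This choice was made after seeing the data, as were the base shares and the comparisons with other peaks.

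Members and gene lists were chosen with earlier results of these data known. Transcripts were named by rule: the 10 with the highest lowest p score (ties by fold, 1 per gene) among those in the H/R lists alone, the control lists alone and all 6 lists, those in at least 3 lists whose gene is in no mRNA list (added), and up to 4 per gene list by number of lists and p score. Host genes with most peaks, and second transcripts of named genes, were named after their values were seen. Some named items are not reported here. The functions were tested on simulated data. Python 3.11.15, pandas 2.3.3, scipy 1.17.1 and pyfaidx 0.9.0.4 were used.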

Additional observations from a re-analysis of the deposited data

How the results depend on the processing

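The alternatives were a minimum fold enrichment of 10, a minimum p score of 100, lists of equal length, other ways of matching or counting, and leaving out 1 library, for 23 results and 218 values. Of 80 values other than leaving out a library, 70 kept their direction and their side of the threshold or stayed within 1.5 times the count. For 3 against 3 libraries the smallest exact permutation p is 0.1, so no such value could change side. These were counted as kept on direction alone, whatever their size. With the fold filter, the difference in peaks per list was 119 in place of 897 and was counted as kept. The share of peaks in the mRNA list by identifier, 0 in both cases, was counted too. The 70 was thus partly fixed in advance and does not show that sizes were stable. The count of H/R-only transcripts was 172, became 32 with the fold filter and 19 at equal length, and ran from 186 to 392 with 1 library left out. The count of control-only transcripts was 3, became 15 and 9, and ran from 5 to 9. The number in all 6 lists with a lower fold in every H/R list, 179, became 1 over the list's median. With 1 library left out and presence asked only in the lists kept, it ran from 188 to 279, with 275 without control A and 279 without control C or H/R B. Fewer lists make each of these conditions easier to meet. For counts with the fold filter or with 1 library left out, the shares over all lncRNA transcripts were not computed. Of the differences within libraries, that in DRACH density by gene became 0.429 with the fold filter and 0.321 at equal length, and that in fold against mRNA peaks -0.0634 (log2) with the p filter. With 5 libraries the smallest p is 0.0625, so none could pass: the length difference ran from -0.46 to -0.42 (log2), the DRACH difference by gene from 0.367 to 0.532, the fold difference against mRNA peaks from -0.11 to -0.0914 (log2), that against other lncRNA peaks from -0.19 to -0.14 (log2), the DRACH difference of exon and intron bases from 1.66 to 1.77 and that against mRNA peaks from -0.675 to -0.627 motifs per kb. Against mRNA peaks, GGAC density was likewise lower. The group differences had p = 0.1 or more in every exact permutation test run. Differences near 0 turned: the share of bases outside coding transcripts was 0.421 percentage points higher after H/R with the fold filter, and the coding share -1.12 with the p filter and between -0.484 and 0.913 with 1 library left out, being below 0 without control A (-0.292), control B (-0.228), H/R A (-0.175) and H/R C (-0.484). The cause was not tested. The split by peak identifier or by overlap of 1 bp gave no value for fold, length or DRACH, since 0 peaks were shared; matched by gene symbol, the share in the mRNA list differed by 10.8 percentage points. No paired analysis was possible because the lists carry letters, and the labels number the replicates without naming those letters. The lists hold no read counts, so a missing peak is not evidence that a site was unmethylated.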

Other observations

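Of the 7254 exon sense-overlapping peaks, 453 also stood in the circRNA list of the same library, in contrast to the 0 that stood in the mRNA list. They numbered 69, 53 and 43 in the controls and 98, 85 and 105 after H/R, which is 6.96%, 7.89% and 6.95% of the peaks in the control lists and 5.82%, 6.83% and 5.14% in the H/R lists. The lowest control share, 6.95%, and the highest H/R share, 6.83%, were close, and the difference was not tested. The same shares over all lncRNA peaks were not computed, so nothing particular to this class is shown.

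AK017143, a transcript listed under a UCSC identifier, was the only one of the 387 transcripts in all 6 lists whose fold enrichment was higher in every H/R list than in every control list. It had 22.5, 45.7 and 35.0 in the controls and 61.4, 51.9 and 69.2 after H/R. Zfp326, a zinc finger protein gene, was the only one lower in every H/R list after division by the list's median, with 15.3, 22.2 and 24.4 and then 5.41, 9.28 and 4.76 as listed. Both were singled out after their values were seen.

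Of the peaks, 816 (11.2%) were also listed with another relationship to a coding gene.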
